A study of Mus musculus with 7 samples.

Results

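RNA brought down by an antibody to EZH2 from mouse embryonic stem (ES) cells was counted in 303889 genomic intervals, called features here, each on 1 strand of mm10. The RNA described here comes from noncoding exons outside the authors' filtered list of 33671 peaks. A feature belonged to this set if it was absent from that list and if the largest share of its bases on its own strand lay in exons without coding sequence or untranslated region in GENCODE release M21. Features of small RNA genes, 54 in number, were left out. This gave 4891 of the 303889 features, in 3774 genes: 660 of lincRNA genes, 486 of antisense genes, 315 of genes typed as processed transcripts, 2383 of pseudogenes and 1047 of other noncoding gene types, of which 847 belonged to genes that still await experimental evidence (TEC). The choice used the filtered list, annotation and strand. What the filter was is not given in the sources used here, so values of a knockout library may have entered it. Of the 22095 listed features tested, 15552 were lower and 0 higher in SAFB DKO than in WT (4 higher at an unadjusted p under 0.05 and 0 in DESeq2), and 239 were lower and 5206 higher in EZH2 KO. Over all 33671 listed features, 677 had a higher mean in SAFB DKO than in WT, so the list was not a strict cut on that ratio of means. If SAFB DKO values did enter the filter, features low in SAFB DKO were removed from the set by the choice itself, and the counts for SAFB DKO below depend on that choice.

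There were 3 genotypes. SAFB DKO cells lacked both Safb and Safb2 (n = 2, clone 13 and clone 4), EZH2 KO cells lacked Ezh2 (n = 2, clone 12 and clone 19), and WT cells were wild type (n = 3, the parent, clone 20 and clone 44). All came from 1 male CAST/B6 line with a recombination cassette at Rosa26. They were grown with 15% serum and given doxycycline for 3 days, and what that drug induced is left unsaid in the labels. Each replicate was thus a separate clone or the parental line, and p-values measure the spread between these. By the series title, the antibody was raised against human EZH2 and also recognises SAFB. SAFB DKO against WT therefore asks which precipitated RNA depends on the SAFB proteins, and EZH2 KO against WT asks which depends on EZH2.

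EZH2 is the catalytic subunit of Polycomb repressive complex PRC2, which methylates histones at repressed genes and has been studied with long noncoding RNAs such as Xist and Kcnq1ot1. SAFB and SAFB2 are nuclear RNA-binding proteins with a preference for purine-rich RNA, GAAGA being one such word. LincRNA genes lie between protein-coding genes, and antisense genes lie opposite another gene. Pseudogenes are mostly retrocopies of spliced messenger RNA and resemble the coding exons of a parent gene.

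Stretches of 30 bases from 6 features show the kind of RNA at issue, 5′ to 3′ with the word GAAGA in capitals. They were read from GENCODE M21 transcripts (mm10) at the place in each feature where GAAGA was densest. The first 4 come from long noncoding RNAs that fell in SAFB DKO: Kcnq1ot1 at chr7:143274057-143274086 (minus strand), Tug1 at chr11:3645391-3645420 (minus strand), Xist at chrX:103466520-103466549 (minus strand) and Meg3 at chr12:109563567-109563596 (plus strand). The last 2 come from retrocopies: Eif4a-ps4 at chr1:60705041-60705070 (plus strand), which rose in SAFB DKO, and Gm4204 at chr1:135232183-135232212 (plus strand), which has 5 copies of the word here, overlaps counted, and was called in no comparison.
Kcnq1ot1: ctactgagtccccatggttgggGAAGAAGA
Tug1: tgattccttccaccttactactGAAGAAGA
Xist: tggctctgaagtgaacgcccaagtaGAAGA
Meg3: ctgGAAGAagcgttttgagatgactGAAGA
Eif4a-ps4: tgtggctattaacatggtgaccGAAGAAGA
Gm4204: gGAAGAtgttGAAGAagtaGAAGAAGAAGA

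Total counts were 18738499 and 15812517 in SAFB DKO, 7050832 and 8353603 in EZH2 KO, and 19024702 to 21832539 in WT. Outside the filtered list they were 18344991 and 15432447 in SAFB DKO, 5236955 and 5930188 in EZH2 KO, and 15930461 to 18113568 in WT. The EZH2 KO libraries were the shallowest and the least alike, with a correlation of 0.736 across features, against 0.891 in SAFB DKO and 0.923 to 0.930 in WT. Their columns were also named by another pattern, so that genotype and a possible difference in sequencing run cannot be told apart in comparisons with EZH2 KO. Features of Safb summed to 1.41 and 0.592 CPM in SAFB DKO (counts scaled to library size), 284 and 314 CPM in EZH2 KO, and 117 to 245 CPM in WT. Those of Safb2 summed to 2.92 and 0.807 CPM in SAFB DKO, 615 and 749 CPM in EZH2 KO, and 124 to 302 CPM in WT, so that both EZH2 KO libraries lay above every WT library. Features of Ezh2 summed to 143 and 170.4 CPM in SAFB DKO, 2.26 and 0.157 CPM in EZH2 KO, and 165 to 202 CPM in WT. Summed ES cell markers (7 genes with features, of 8 listed) lay at 1381 to 1402 CPM in SAFB DKO, 795 to 903 CPM in EZH2 KO and 983 to 1064 CPM in WT. Not all markers had that order: Zfp42 had 43.6 and 37.6 CPM in SAFB DKO, 154 and 179 CPM in EZH2 KO, and 73.5 to 93.7 CPM in WT, and Klf4 was highest in EZH2 KO, at 98.5 and 112 CPM. Fibroblast markers (3 genes of 7) summed to at most 10.1 CPM in any library and primitive endoderm markers (4 of 5) to at most 20.8 CPM, with 1 fibroblast marker at 0 in each knockout and 1 endoderm marker at 0 in SAFB DKO. Early neural markers (3 of 4) summed to 113 to 120 CPM in SAFB DKO, 122 to 136 CPM in EZH2 KO and 201 to 279 CPM in WT. The part of these differences in the results below was not tested.

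The noncoding-exon features took 13.2% and 12.9% of all counts in SAFB DKO, 7.70% and 6.96% in EZH2 KO, and 7.83%, 7.39% and 7.77% in WT. The means were 13.0 ± 0.247% in SAFB DKO, 7.33 ± 0.521% in EZH2 KO and 7.66 ± 0.239% in WT (SD, n = 2, 2 and 3). SAFB DKO lay above WT without overlap (exact two-sided permutation p = 0.1, the smallest that 3 libraries against 2 allow), while EZH2 KO and WT overlapped (exact permutation p = 0.5). Most of these counts fell on 2 lincRNA genes with ribosomal RNA sequence, Gm26917 and Gm42418. Without such genes the share was 3.33 ± 0.00267% in SAFB DKO, 2.29 ± 0.0926% in EZH2 KO and 2.72 ± 0.0622% in WT, and each knockout was apart from WT (exact permutation p = 0.1 for each). All counts include those of listed peaks, whose part differed between the genotypes. Over counts outside the list the whole set took 13.3 ± 0.224% in SAFB DKO, 10.1 ± 0.395% in EZH2 KO and 9.20 ± 0.279% in WT. EZH2 KO then lay above WT without overlap (exact permutation p = 0.1). The share without ribosomal RNA-like genes was not taken over those counts, so it also depends on the listed peaks.

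The classes went separate ways once those genes were set aside. Pseudogenes held 2.28 ± 0.0577% of counts in SAFB DKO, 0.846 ± 0.0265% in EZH2 KO and 1.41 ± 0.0375% in WT. Antisense genes had the opposite order, with 0.0552 ± 0.000837% in SAFB DKO, 0.186 ± 0.0224% in EZH2 KO and 0.105 ± 0.00496% in WT. Other noncoding types were likewise lowest in SAFB DKO, at 0.112 ± 0.00507%, against 0.223 ± 0.0123% in EZH2 KO and 0.168 ± 0.00626% in WT. In these 3 classes each knockout was apart from WT in every library (exact permutation p = 0.1 for each). Processed transcripts followed the order of the pseudogenes, with 0.140 ± 0.00281% in SAFB DKO, 0.0903 ± 0.000191% in EZH2 KO and 0.116 ± 0.00458% in WT (exact permutation p = 0.1 for each knockout). LincRNA genes without the ribosomal RNA-like ones held 0.736 ± 0.0480% in SAFB DKO, 0.9499 ± 0.0750% in EZH2 KO and 0.913 ± 0.0426% in WT, where the exact permutation p was 0.1 for SAFB DKO and 0.5 for EZH2 KO. In bulk precipitates a lower share can come from less of the RNA in the cells or from less of it being precipitated, and these cannot be told apart. It can also come from more counts in other features. The class shares were taken over all counts only, so they also depend on the listed peaks.

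**Figure D1:**
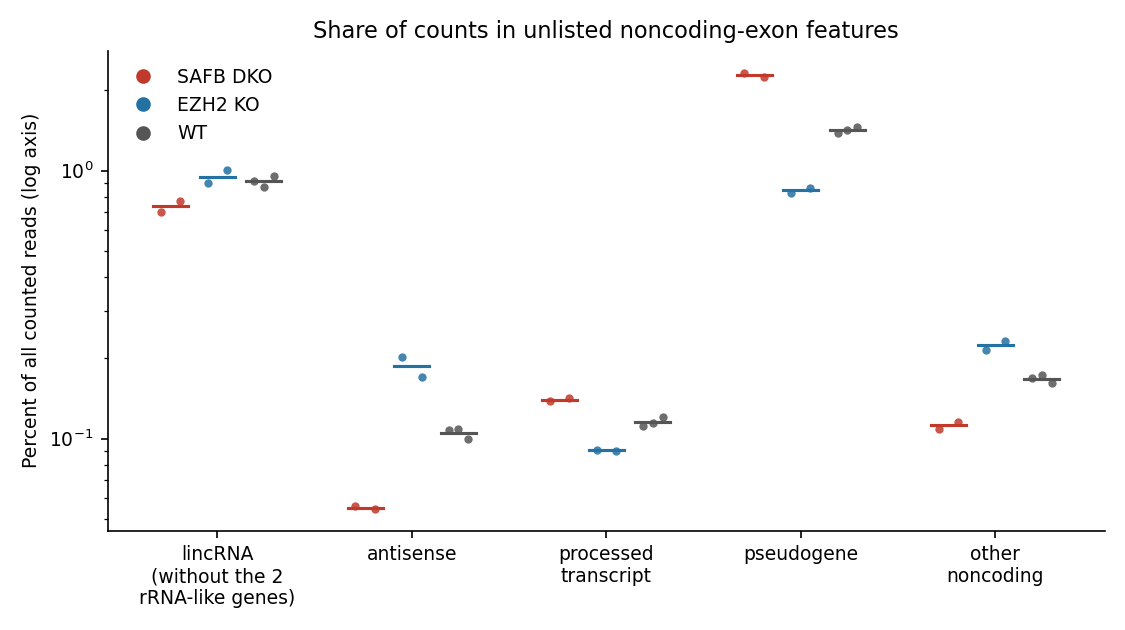
Share of all counts (percent, log axis) held by each class of noncoding-exon features, with 1 point per library and a bar at the group mean, for SAFB DKO, EZH2 KO and WT; lincRNA is shown without the ribosomal RNA-like genes. Pseudogenes averaged 2.28% in SAFB DKO, 0.846% in EZH2 KO and 1.41% in WT, and antisense genes 0.0552%, 0.186% and 0.105% in the same order of groups.

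Of the 4891 features, 3317 passed the filter on low counts and were tested. SAFB DKO against WT gave 493 that fell and 250 that rose at an adjusted p under 0.05 (edgeR quasi-likelihood test, Benjamini-Hochberg adjustment over all 192964 features tested). The same test called 17.4% of all features lower and 2.26% higher, 19.7% in all, and among the noncoding-exon features tested the shares were 14.9% and 7.54%. Their median log2 fold change was -0.01, beside -0.17 over all features tested. With column totals as library sizes 428 fell and 427 rose, and with DESeq2 size factors 405 fell and 435 rose. The median then became positive, at 0.08 to 0.24 under the other scalings. The count of risers also moved when 1 library was left out. It was 98 to 138 without 1 SAFB DKO or 1 WT library, whichever that was. It was 440 or 448 without 1 EZH2 KO library, a group that shares in the estimate of spread.

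That near-zero median joined classes of opposite direction. LincRNA had 99 features lower and 13 higher of 407 in SAFB DKO against WT, with a median log2 fold change of -0.68. Of 292 antisense features, 87 fell and 0 rose, with a median of -1.05. Of these, 5 were higher at an unadjusted p under 0.05, and DESeq2 called 3 higher. Among 661 features of other noncoding types, 111 fell and 1 rose, with a median of -0.47. Processed transcripts had 31 lower and 7 higher of 210, with a median of -0.19, which was 0.06 with the size factors of DESeq2, 0.03 with column totals and -0.10 when TMM drew on all features. Pseudogenes stood opposite, with 165 lower and 229 higher of 1747 and a median of 0.42. The shares that fell were 24.3% in lincRNA, 29.8% in antisense, 16.8% in other types, 14.8% in processed transcripts and 9.44% in pseudogenes. Other types, processed transcripts and pseudogenes lay below the 17.4% of all features called lower. With DESeq2 size factors 134 pseudogene features fell and 385 rose, 82 lincRNA features fell and 24 rose, and 23 processed-transcript features fell and 17 rose. Leaving out 1 library at a time gave 93 to 404 higher and 101 to 222 lower pseudogene features, 56 to 114 lower antisense features and 3 to 20 higher lincRNA features. It gave 18 to 50 lower and 0 to 12 higher processed-transcript features, and 77 to 169 lower and 0 to 7 higher features of other types. In each of these ranges the lowest count came without a SAFB DKO or WT library and the highest without an EZH2 KO library.

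Set against WT, EZH2 KO had medians of the opposite sign in lincRNA, antisense and pseudogene features, under each scaling tried. LincRNA had 77 features higher and 14 lower of 407, with a median log2 fold change of 0.47. Antisense had 55 higher and 6 lower of 292, with a median of 0.52. Pseudogenes had 412 lower and 95 higher of 1747, with a median of -0.80, or -0.71 when features without a count in EZH2 KO were set to the bound that 3 counts over the group allow. Other noncoding types had 71 higher and 19 lower of 661, with a median of 0.01 that was 0.02 with the size factors of DESeq2, -0.26 with column totals and -0.12 when TMM drew on all features. Processed transcripts had 25 higher and 33 lower of 210, with a median of -0.02. Over all noncoding-exon features tested, 484 fell and 323 rose (14.6% and 9.74%), where the test called 8.07% of all features lower and 7.5% higher, 15.6% in all. With column totals 690 fell and 255 rose over all classes, 26 and 64 in lincRNA, 43 and 20 in processed transcripts, and 43 and 54 in other types. The count that fell was 777 without EZH2 KO replicate 2 and 260 to 283 without 1 WT library, and the count that rose was 181 to 205 without 1 WT library. By class, leaving out 1 library gave 232 to 577 lower and 47 to 119 higher pseudogene features, 5 to 38 lower and 49 to 86 higher lincRNA features, and 34 to 58 higher antisense features. Processed transcripts had 18 to 45 lower and 13 to 31 higher, and other types 5 to 100 lower and 34 to 77 higher. The lowest counts came without a WT library, and the highest counts of lower features without EZH2 KO replicate 2.

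SAFB DKO against EZH2 KO tests the difference between the knockouts directly, though the WT libraries enter the fit through the filter on low counts and the estimate of spread. Here 774 features fell and 852 rose of 3317 (23.3% and 25.7%), where the test called 23.3% of all features lower and 16.6% higher, 39.9% in all. A fit of the 2 knockouts alone gave 554 lower and 572 higher of 2479. Antisense features had 127 lower and 10 higher of 292, with a median log2 fold change of -1.66, and lincRNA features 169 lower and 28 higher of 407, with a median of -1.19. Pseudogene features had 727 higher and 242 lower of 1747, with a median of 1.32. Other noncoding types had 177 lower and 41 higher, and processed transcripts 59 lower and 46 higher. Column totals gave 674 lower and 1117 higher over all classes, 150 and 58 in lincRNA, 49 and 61 in processed transcripts, and 146 and 78 in other types. Without EZH2 KO replicate 2 the higher features numbered 47 in lincRNA, 27 in antisense and 108 in other types.

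**Figure D2:**
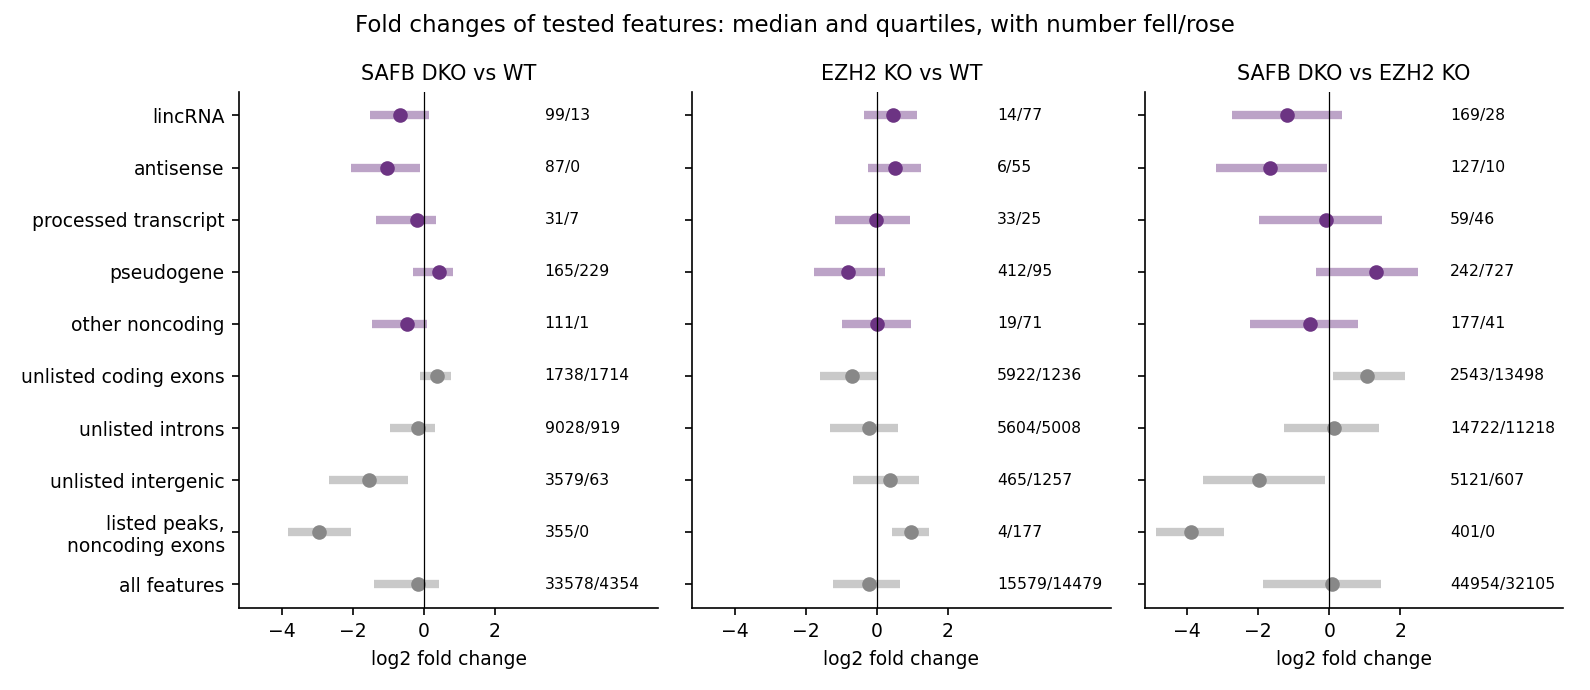
Median log2 fold change of the tested noncoding-exon features by class (points, with quartiles as lines) in SAFB DKO against WT, EZH2 KO against WT and SAFB DKO against EZH2 KO, with the number that fell and rose beside each. LincRNA, antisense and pseudogene medians lie on opposite sides of 0 in the first comparison (-0.68, -1.05 and 0.42) and in the second (0.47, 0.52 and -0.80).

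Unlisted features of other kinds were counted beside these classes. Set against WT, SAFB DKO had 1738 unlisted coding-exon features lower and 1714 higher of 43599, with a median of 0.36, near the pseudogene median of 0.42. Of 11646 unlisted intergenic features 3579 fell and 63 rose, with a median of -1.56, on the side of the antisense and lincRNA features. Introns of lincRNA genes had 295 lower and 3 higher of 1382, with a median of -0.71, and introns of antisense genes 170 lower and 1 higher of 723, with a median of -1.06. Listed peaks in noncoding exons, chosen by a filter that is not described and thus no independent evidence of a fall, had 355 lower and 0 higher of 491, with a median of -2.96; none was higher at an unadjusted p under 0.05 or in DESeq2. Of the 4891 unlisted features 635 lay in a gene that also held a listed peak. In such genes 36 of 133 lincRNA features fell in SAFB DKO, with a median of -0.99, against 63 of 274 in lincRNA genes without a listed peak, with a median of -0.47. For pseudogenes the medians were -1.03 in 75 features of genes with a listed peak and 0.46 in 1672 features of genes without one. This split rests on the same list, so the lower medians in genes with a listed peak are no independent evidence of a fall either.

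Exons and introns of the same gene had medians of the same sign in the long noncoding classes. In 106 lincRNA genes with both kinds of unlisted feature, the median log2 fold change in SAFB DKO against WT was -0.65 for exons and -0.57 for introns. In 63 antisense genes it was -0.93 for exons and -0.82 for introns. Taken gene by gene, the median of exon minus intron was -0.18 in lincRNA genes, with the exon higher in 45 of 106. In antisense genes it was 0.44, with the exon higher in 38 of 63. The exon and intron medians in EZH2 KO against WT were 0.60 and 0.15 in lincRNA genes, and 0.39 and 0.63 in antisense genes. Gene by gene the difference had a median of 0.25 in lincRNA genes, with the exon higher in 65 of 106. It was -0.17 in antisense genes, with the exon higher in 28 of 63. Summed over 68 processed-transcript genes, the log2 ratio of exon to intron counts was -0.47 in SAFB DKO, -1.33 in EZH2 KO and -1.04 in WT, and each knockout was apart from WT in every library (exact permutation p = 0.1). The median over the same 68 genes was -0.67 in SAFB DKO, -1.04 in EZH2 KO and -0.55 in WT. By this measure EZH2 KO was again apart from WT (exact permutation p = 0.1), but SAFB DKO had the other sign and overlapped WT (exact permutation p = 0.5).

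The most abundant lincRNA features belong to genes with ribosomal RNA sequence on chromosome 17, whose reads cannot be told apart from ribosomal RNA left after depletion. Gm26917 (chr17:39843128-39846358, plus strand) had 75063 and 73242 CPM in SAFB DKO, 51681 and 53826 CPM in EZH2 KO, and 46271, 41795 and 43849 CPM in WT. Every knockout library was above every WT library. The log2 fold change was 0.75 (SE 0.05, adjusted p = 3.8e-08) in SAFB DKO and 0.26 (SE 0.05, adjusted p = 0.0037) in EZH2 KO, and the second call was lost in 6 of 16 alternatives. Gm42418 (chr17:39848407-39848822, plus strand) had 9439 and 7933 CPM in SAFB DKO, 6286 and 6641 CPM in EZH2 KO, and 5399, 4893 and 5633 CPM in WT, also without overlap. Gm15564, an antisense gene on chromosome 16 that also carries ribosomal RNA-like sequence, was far lower, with 0.411 and 0.323 CPM in SAFB DKO, 24.8 and 5.19 CPM in EZH2 KO, and 0.188 to 0.418 CPM in WT.

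Xist, the RNA that coats and silences an X chromosome in female cells, was next in abundance, with 8 features on the minus strand of the X chromosome. All lie opposite the antisense gene Tsix, so their assignment rests on the stranded counting. The line is male and every group had doxycycline for 3 days. The part of the drug in the level of Xist was not tested. Of the 8, 7 fell in SAFB DKO against WT. The feature nearest the 5′ end (chrX:103480928-103483197) had 483 and 579.7 CPM in SAFB DKO, 1842 and 2931 CPM in EZH2 KO, and 1506, 1358 and 1594 CPM in WT. SAFB DKO was below and EZH2 KO above every WT library. It fell in SAFB DKO (log2 fold change -1.48, SE 0.16, adjusted p = 2.8e-06) and rose in EZH2 KO (0.68, SE 0.15, adjusted p = 0.0057), the only Xist feature called in that comparison.

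The next feature toward the 3′ end (chrX:103474494-103475257) did not follow. It had 49.996 and 75.2 CPM in SAFB DKO, 29.6 and 77.7 CPM in EZH2 KO, and 34.1, 41.7 and 51.2 CPM in WT, with groups that overlap. No comparison called it, and in SAFB DKO against WT its log2 fold change was 0.56 (SE 0.29, adjusted p = 0.22). Downstream, chrX:103469297-103469803 had 153 and 160.0 CPM in SAFB DKO, 478 and 576 CPM in EZH2 KO, and 431, 390.0 and 465 CPM in WT, and fell in SAFB DKO by 1.46 on the log2 scale (SE 0.14, adjusted p = 6.8e-07). Here too SAFB DKO lay below WT in each library. The 3 short features on either side of it (chrX:103473673-103473943, chrX:103470559-103470910 and chrX:103468827-103468972) fell by nearly the same amount, with log2 fold changes of -1.41, -1.44 and -1.46.

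The most abundant Xist feature fell least among the 7. At chrX:103465638-103467922 there were 1112 and 1643 CPM in SAFB DKO, 1785 and 2649 CPM in EZH2 KO, and 2164, 1988 and 2563 CPM in WT. The log2 fold change in SAFB DKO against WT was -0.70 (SE 0.17, adjusted p = 0.0064), and the call was lost with DESeq2, with its size factors, against a fold of 1.5, without SAFB DKO replicate 1 and without WT replicate 3. The feature nearest the 3′ end (chrX:103460455-103461661) had 101 and 154 CPM in SAFB DKO, 339 and 837 CPM in EZH2 KO, and 377, 393 and 439 CPM in WT. It fell in SAFB DKO by 1.66 on the log2 scale (SE 0.27, adjusted p = 0.00025). Against EZH2 KO the same 7 features were lower in SAFB DKO, with a median over all 8 of -1.66.

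**Figure D3:**
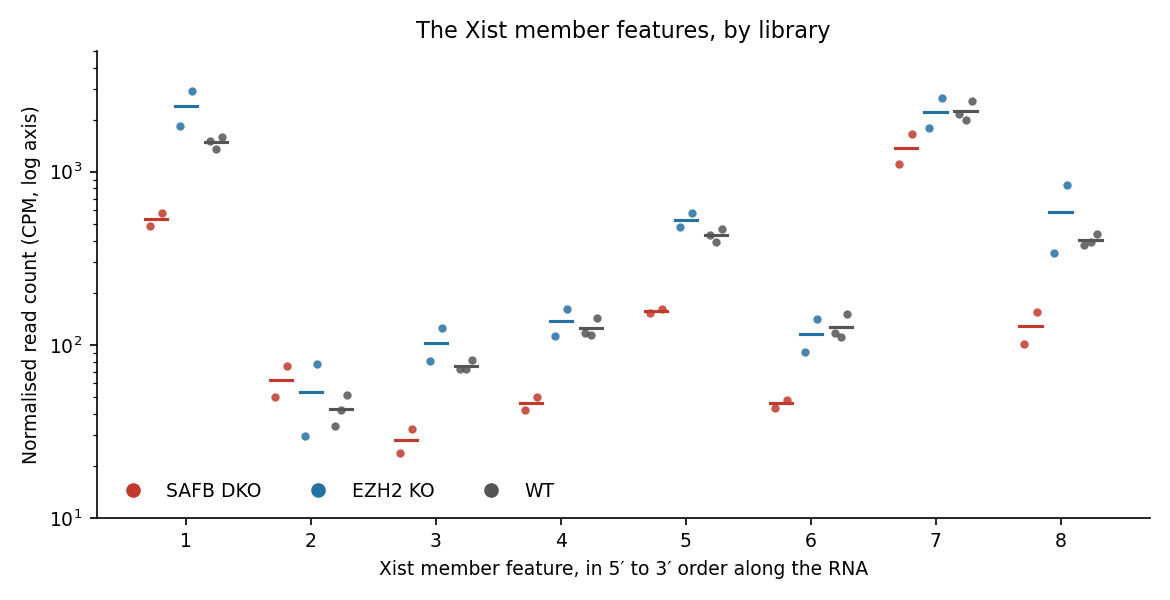
Level (CPM, log axis) of the 8 unlisted Xist features in order from the 5′ to the 3′ end, with 1 point per library for SAFB DKO, EZH2 KO and WT. At 7 of the 8 the SAFB DKO points lie below the WT points, and at the second from the 5′ end the groups overlap.

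In other genes of the X inactivation centre, the region that controls Xist, the unlisted noncoding-exon features held little precipitated RNA. Listed peaks and introns of these genes are outside the set. The 4 genes Xist, Tsix, Jpx and Ftx had 16 tested features, of which 7 fell in SAFB DKO against WT, all of Xist, and 0 rose (0 at an unadjusted p under 0.05 and 0 in DESeq2). The test called 17.4% of all features lower and 2.26% higher in that comparison. The top Tsix feature (chrX:103447826-103448538) had 1.05 and 0.915 CPM in SAFB DKO, 1.95 and 7.08 CPM in EZH2 KO, and 2.90, 2.59 and 2.14 CPM in WT. SAFB DKO lay below WT without overlap, but the difference of -1.36 on the log2 scale did not pass the test (SE 0.51, adjusted p = 0.072). None of the 5 tested Ftx features was called in any comparison.

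Among lincRNAs with lower counts in SAFB DKO, Platr10, named for its association with pluripotency, had 33.4 and 34.6 CPM in SAFB DKO, 118 and 162 CPM in EZH2 KO, and 117, 106 and 122 CPM in WT. SAFB DKO stood apart from the other groups, which overlapped, and the log2 fold change against WT was -1.76 (adjusted p = 1.3e-06). Lncenc1, a long noncoding RNA abundant in naive ES cells, had 101 and 103 CPM in SAFB DKO, 221 and 282 CPM in EZH2 KO, and 174, 224 and 235 CPM in WT at chr13:97494368-97495409 (SAFB DKO against WT -1.04, SE 0.16, adjusted p = 0.00017). A neighbouring feature of the same gene was called in no comparison, with 71.1 and 83.2 CPM in SAFB DKO, 62.5 and 82.6 CPM in EZH2 KO, and 62.7, 80.9 and 96.3 CPM in WT. Trp53cor1, also called lincRNA-p21, is a target of the tumour suppressor p53. It had 1.00 and 1.35 CPM in SAFB DKO, 16.4 and 22.0 CPM in EZH2 KO, and 12.7, 11.6 and 9.66 CPM in WT (SAFB DKO against WT -3.27, adjusted p = 7.4e-07). Over the list of ES cell noncoding RNAs 4 of 14 tested features fell in SAFB DKO (Lncenc1, Platr10, Platr21 and Platr8) and 0 rose (0 at an unadjusted p and 0 in DESeq2), with a median of -0.05. The test called 17.4% of all features lower and 2.26% higher in SAFB DKO against WT. EZH2 KO against WT had 0 of the 14 called by edgeR or DESeq2, beside 15.6% of all features called by edgeR. At an unadjusted p 3 were lower and 2 higher.

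Some lincRNA features were absent from 1 knockout. B230303O12Rik (chr5:146194279-146195153) had 0 counts in both SAFB DKO libraries, 10.5 and 11.8 CPM in EZH2 KO, and 2.76, 3.39 and 1.31 CPM in WT. It was at least 33.5-fold lower in SAFB DKO than in WT, taking 3 counts over the SAFB DKO libraries as the floor, and it rose in EZH2 KO by 2.16 on the log2 scale (SE 0.39, adjusted p = 0.0019). Miat (chr5:112219365-112220132) had 1.00 and 2.04 CPM in SAFB DKO, 0 counts in both EZH2 KO libraries, and 2.02, 1.22 and 2.14 CPM in WT, at least 7.79-fold lower in EZH2 KO than in WT. In the EZH2 KO libraries, which are shallower, 231 of the 3317 tested features had no count, against 51 in SAFB DKO. Gm53, a lincRNA gene between Hoxb13 and Hoxb9, had the largest log2 fold change among the lincRNA features that rose in EZH2 KO at a mean of at least 1 CPM. It had 2.69 and 1.72 CPM in SAFB DKO, 66.4 and 68.9 CPM in EZH2 KO, and 6.25, 4.94 and 5.01 CPM in WT (EZH2 KO against WT 3.64, SE 0.23, adjusted p = 5.4e-07; SAFB DKO against WT -1.28, adjusted p = 0.0015). Hox clusters are textbook targets of Polycomb repression.

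The 13 lincRNA features that rose in SAFB DKO were those of Gm26917, Gm42418, Rmrp, H19, Malat1, Snhg12 and Snhg20, and 6 features of lower level, of which 3 lay in 1700001L05Rik. Rmrp, the RNA component of the RNase MRP complex, had 1674 and 1513 CPM in SAFB DKO, 264 and 259.6 CPM in EZH2 KO, and 1098, 804 and 807 CPM in WT. The 3 groups were apart, with log2 fold changes against WT of 0.82 (SE 0.13, adjusted p = 0.00019) in SAFB DKO and -1.79 (SE 0.14, adjusted p = 5.1e-06) in EZH2 KO. Gm807 had 4.61 and 3.07 CPM in SAFB DKO, 0.902 and 1.42 CPM in EZH2 KO, and 1.33, 1.27 and 1.25 CPM in WT (SAFB DKO against WT 1.57, SE 0.42, adjusted p = 0.013). H19, an imprinted RNA expressed from the maternal allele, had 470.0 and 323 CPM in SAFB DKO, 484 and 555 CPM in EZH2 KO, and 257, 271 and 332 CPM in WT. Its log2 fold change was 0.86 (adjusted p = 0.0018) in EZH2 KO and 0.47 (adjusted p = 0.047) in SAFB DKO, where the groups overlapped and the call was lost in 5 of 15 alternatives. Malat1 and Neat1 are both abundant nuclear RNAs. The 1 unlisted feature of Malat1 had 307 and 310.2 CPM in SAFB DKO, 229 and 228 CPM in EZH2 KO, and 246, 235 and 215 CPM in WT. The most abundant of 8 Neat1 features, which overlaps 4 genes on its strand, had 104 and 102 CPM in SAFB DKO, 507 and 658 CPM in EZH2 KO, and 254, 286 and 135 CPM in WT. It was the only 1 of 5 tested Neat1 features to fall in SAFB DKO, where the median of the 5 was 0.13, and 2 of the 5 rose in EZH2 KO.

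Antisense genes had the largest share of features that fell in SAFB DKO of the 5 classes, 29.8%. Kcnq1ot1, which silences imprinted neighbours on the paternal chromosome, held 26 of the features, of which 17 fell in SAFB DKO and 11 rose in EZH2 KO. Its most abundant one (chr7:143272459-143275315) had 10.9 and 13.3 CPM in SAFB DKO, 406 and 294 CPM in EZH2 KO, and 82.6, 83.7 and 74.9 CPM in WT. The 3 groups were apart, with log2 fold changes against WT of -2.73 (SE 0.19, adjusted p = 2.8e-08) in SAFB DKO and 2.12 (SE 0.16, adjusted p = 4.1e-06) in EZH2 KO. Tug1, a long noncoding RNA typed as antisense in this annotation, had 4 features, and all 4 fell in SAFB DKO and rose in EZH2 KO. Its top feature (chr11:3644802-3645556) had 24.5 and 28.7 CPM in SAFB DKO, 71.3 and 138 CPM in EZH2 KO, and 60.9, 57.7 and 65.1 CPM in WT. The groups did not overlap in either direction. The log2 fold change was -1.20 (SE 0.23, adjusted p = 0.001) in SAFB DKO and 0.77 (SE 0.22, adjusted p = 0.025) in EZH2 KO, and the second call was lost with column totals, against a fold of 1.5, without EZH2 KO replicate 2 and without any 1 WT library.

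The antisense genes A030001D20Rik, 1110002L01Rik and 4930500F10Rik, known only by clone names, had the same order of groups as Kcnq1ot1. A030001D20Rik (chr7:45635077-45637031) had 2.60 and 2.31 CPM in SAFB DKO, 57.3 and 53.9 CPM in EZH2 KO, and 10.2, 10.5 and 8.20 CPM in WT. Its log2 fold change was -1.97 (adjusted p = 1.1e-05) in SAFB DKO and 2.53 (adjusted p = 6e-06) in EZH2 KO. 1110002L01Rik (chr12:3404303-3406688) had 9.49 and 13.4 CPM in SAFB DKO, 61.8 and 67.6 CPM in EZH2 KO, and 23.2, 26.7 and 21.8 CPM in WT. 4930500F10Rik had 0.182 and 0 CPM in SAFB DKO, 9.62 and 11.5 CPM in EZH2 KO, and 2.30, 1.84 and 2.04 CPM in WT. In all 3 every SAFB DKO library was below, and every EZH2 KO library above, every WT library. Antisense features held GAAGA 2.03 times per kilobase on their own strand and 1.95 times on the opposite strand. A copy in features of 1955 and 2386 bases is thus no distinguishing trait. Stretches of 30 bases, GAAGA in capitals, were taken where the word was densest in A030001D20Rik (chr7:45636537-45636566 (minus strand)) and 1110002L01Rik (chr12:3404306-3404335 (minus strand)).
A030001D20Rik: agttgagaagggatgcattggaGAAGAAGA
1110002L01Rik: gaccacacattaaaaaaaagaaaaaGAAGA

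The few antisense features that fell in EZH2 KO were low. Rab10os had 12.7 and 7.32 CPM in SAFB DKO, 2.10 and 0.786 CPM in EZH2 KO, and 4.50, 5.84 and 5.22 CPM in WT (EZH2 KO against WT -1.83, SE 0.45, adjusted p = 0.012). 4930558J22Rik had the reverse of the Kcnq1ot1 order, with 4.93 and 3.77 CPM in SAFB DKO, 0.301 and 0.786 CPM in EZH2 KO, and 2.71, 1.79 and 1.98 CPM in WT. It fell in EZH2 KO (-1.99, SE 0.61, adjusted p = 0.036), a call lost in 7 of 15 alternatives, while SAFB DKO did not pass the test against WT (1.01, SE 0.40, adjusted p = 0.093). Leaving out 1 library gave 0 to 17 such features in place of 6, the highest without EZH2 KO replicate 2.

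Processed transcripts held genes of both kinds. Snhg3, which hosts small nucleolar RNAs in its introns, had 156 and 125 CPM in SAFB DKO, 36.7 and 51.4 CPM in EZH2 KO, and 94.7, 87.5 and 85.6 CPM in WT. SAFB DKO lay above WT and EZH2 KO below it in each library. It fell in EZH2 KO (-1.02, adjusted p = 0.0015) and rose in SAFB DKO (0.65, adjusted p = 0.012), a call lost in 4 alternatives. Snhg5 fell in EZH2 KO (-0.92, adjusted p = 0.0058), with 47.5 and 60.3 CPM in SAFB DKO, 26.2 and 31.6 CPM in EZH2 KO, and 51.1, 49.0 and 63.5 CPM in WT. Over the list of snoRNA host genes, 3 of 11 tested features rose and 1 fell in SAFB DKO against WT, and 2 fell and 0 rose in EZH2 KO against WT (0 higher at an unadjusted p and 0 in DESeq2). Between the knockouts 6 of 11 were higher and 0 lower in SAFB DKO (1 at an unadjusted p and 0 in DESeq2), with a median of 0.90. Over all features the test called 2.26% higher and 17.4% lower in SAFB DKO against WT. It called 8.07% lower and 7.5% higher in EZH2 KO against WT. Between the knockouts it called 16.6% higher and 23.3% lower in SAFB DKO.

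Cct6a, best known for encoding a chaperonin subunit, carries 10 features in exons that this annotation gives no coding sequence. Whether their reads come from coding messenger RNA was not tested. Of the 10, 8 fell in EZH2 KO against WT and 3 rose in SAFB DKO against WT. The top one (chr5:129845544-129846355) had 105 and 115 CPM in SAFB DKO, 20.1 and 29.9 CPM in EZH2 KO, and 59.0, 66.8 and 77.3 CPM in WT. Rian, an imprinted host of snoRNAs, had 13 tested features, of which 7 fell in EZH2 KO. Firre, an X-linked long noncoding RNA with a repeated domain, had 9 tested features, of which 5 fell in EZH2 KO. Cct6a, Rian and Firre thus held 8, 7 and 5 of the 33 processed-transcript features that fell in EZH2 KO against WT. The top feature of Firre (chrX:50563265-50564633) had 19.5 and 27.0 CPM in SAFB DKO, 10.2 and 13.2 CPM in EZH2 KO, and 28.7, 32.0 and 29.0 CPM in WT. Only EZH2 KO passed the test against WT (-1.35, SE 0.23, adjusted p = 0.0011); SAFB DKO differed by -0.36 (SE 0.21, adjusted p = 0.28), and the knockouts differed from each other by 0.99 (SE 0.25, adjusted p = 0.0046).

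Other processed transcripts followed the antisense pattern. A730017L22Rik had 0.730 and 0.377 CPM in SAFB DKO, 17.4 and 14.2 CPM in EZH2 KO, and 5.88, 5.88 and 4.44 CPM in WT. A630052C17Rik had 1.32 and 1.83 CPM in SAFB DKO, 26.9 and 29.7 CPM in EZH2 KO, and 5.42, 8.42 and 5.27 CPM in WT. In both, the log2 fold change was negative in SAFB DKO (-3.25 and -2.02) and positive in EZH2 KO (1.55 and 2.15), past the test in each. Among microRNA hosts, the lincRNA gene Mir17hg, host of the miR-17 cluster, had 24.5 and 32.1 CPM in SAFB DKO, 7.07 and 13.1 CPM in EZH2 KO, and 15.3, 16.1 and 23.6 CPM in WT, and differed between the knockouts only (1.495, adjusted p = 0.0011). Mir22hg, a processed transcript that hosts miR-22, went the other way, with 1.60 and 0.861 CPM in SAFB DKO, 24.8 and 23.0 CPM in EZH2 KO, and 8.78, 8.05 and 7.31 CPM in WT (SAFB DKO against WT -2.69, adjusted p = 6.7e-06; EZH2 KO against WT 1.57, adjusted p = 0.00069). Over the list of microRNA host genes 2 of 11 tested features fell in SAFB DKO against WT, a share near the 17.4% of all features called lower, and 0 rose (2 at an unadjusted p and 1 in DESeq2).

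Imprinted noncoding RNAs had 56 tested features in 8 genes. SAFB DKO had 24 lower than WT, in Kcnq1ot1, Meg3, Mirg, Nespas, Peg13 and Snhg14, and 1 higher, in H19, with a median of -0.67. Of the 24, 17 were features of Kcnq1ot1, and the call of Snhg14 (adjusted p = 0.046) was lost in 10 of 15 alternatives. EZH2 KO had 12 lower than WT, in Meg3, Mirg and Rian, and 14 higher, in H19, Kcnq1ot1, Meg3 and Peg13. Over all features the test called 17.4% lower and 2.26% higher in SAFB DKO, and 8.07% lower and 7.5% higher in EZH2 KO. Meg3, the maternal RNA of the same cluster as Rian, held features of both kinds. Its feature at chr12:109563338-109564649 had 20.1 and 16.8 CPM in SAFB DKO, 241 and 239 CPM in EZH2 KO, and 164, 150.5 and 76.5 CPM in WT. SAFB DKO was below every WT library and EZH2 KO above, with log2 fold changes of -2.82 (adjusted p = 6.3e-07) and 0.88 (adjusted p = 0.016).

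**Figure D4:**
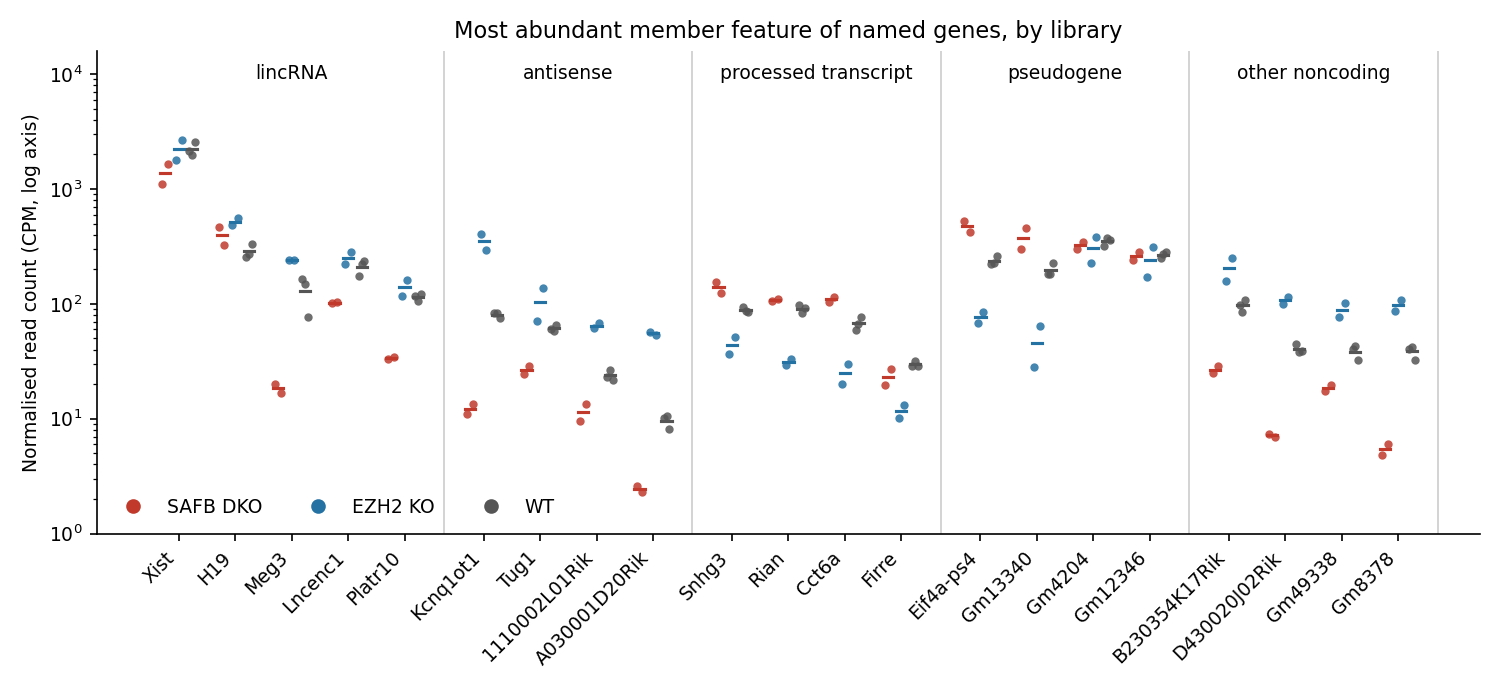
Level (CPM, log axis) of the most abundant unlisted feature of named genes from each class, with 1 point per library and a bar at the group mean, for SAFB DKO, EZH2 KO and WT. Kcnq1ot1, Tug1, A030001D20Rik and D430020J02Rik are lowest in SAFB DKO and highest in EZH2 KO, and Eif4a-ps4 and Snhg3 have the reverse order.

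The other noncoding gene types differed in how far their features could be assigned. Of these 1047 features 75.9% overlapped more than 1 gene on their strand, beside 25.8% of the whole set. In the 143 tested features with 1 gene on the strand 41 fell in SAFB DKO, with a median of -1.02. In the 518 with more genes 70 fell (13.5%), with a median of -0.35, where the test called 17.4% of all features lower. Bidirectional-promoter RNAs, which start beside a coding gene and run away from it, had 20 of 55 tested features lower in SAFB DKO, with a median of -1.35, and 19 higher in EZH2 KO, with a median of 1.26. TEC genes had 74 of 521 lower in SAFB DKO (14.2%, below the 17.4% of all features) and 1 higher. The 1 was Gm38319, which had 6.25 and 4.57 CPM in SAFB DKO, 6.61 and 4.09 CPM in EZH2 KO, and 2.62, 3.01 and 1.93 CPM in WT.

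Bidirectional-promoter gene D430020J02Rik (chr12:116403548-116404639) had 7.44 and 6.89 CPM in SAFB DKO, 99.7 and 115 CPM in EZH2 KO, and 44.8, 37.9 and 38.8 CPM in WT. The groups were apart in both directions, with log2 fold changes of -2.50 (adjusted p = 9.7e-08) in SAFB DKO and 1.41 (adjusted p = 7.9e-05) in EZH2 KO. B230354K17Rik (chr17:45438522-45442187) had 24.9 and 28.6 CPM in SAFB DKO, 158 and 249.7 CPM in EZH2 KO, and 98.2, 85.1 and 108 CPM in WT. Gm8378, in the sense direction of an intron, had 4.84 and 6.08 CPM in SAFB DKO, 86.1 and 109 CPM in EZH2 KO, and 40.9, 42.5 and 32.5 CPM in WT. Gm49338, a TEC gene, had 17.3 and 19.6 CPM in SAFB DKO, 76.4 and 102 CPM in EZH2 KO, and 40.3, 42.9 and 32.2 CPM in WT. These 4, from the most abundant genes of their class, fell in SAFB DKO and rose in EZH2 KO.

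Pseudogenes were sorted by their likeness to coding transcripts. Of 2383 features 2098 matched a protein-coding transcript over at least 50% of their length, with a median identity of 97.7%, so that reads of the pseudogene and of its parent cannot be told apart for many of them. Where identity was 98% or more, 180 of 781 tested features were called higher and 23 lower in SAFB DKO against WT, with a median log2 fold change of 0.67, and 266 fell and 12 rose in EZH2 KO against WT, with a median of -1.06. At lower identity 46 of 827 rose (5.56%) and 101 fell (12.2%) in SAFB DKO, with a median of 0.21. Features without such a match had the signs of the long noncoding classes. Here 41 of 139 fell and 3 rose in SAFB DKO, with a median of -0.83, and 22 rose and 5 fell in EZH2 KO, with a median of 0.52. Among all features tested, 17.4% were called lower and 2.26% higher in SAFB DKO, and 8.07% lower and 7.5% higher in EZH2 KO. At 98% identity or more the parents' unlisted coding exons had a median of 0.54 in SAFB DKO against WT, beside 0.63 for the pseudogene features paired with them (674 pairs). Across these pairs the fold changes followed each other only in part (Pearson r = 0.52 in SAFB DKO and 0.22 in EZH2 KO, each against WT). At lower identity the medians in SAFB DKO were 0.43 for the parents and 0.24 for the pseudogene features (741 pairs).

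**Figure D5:**
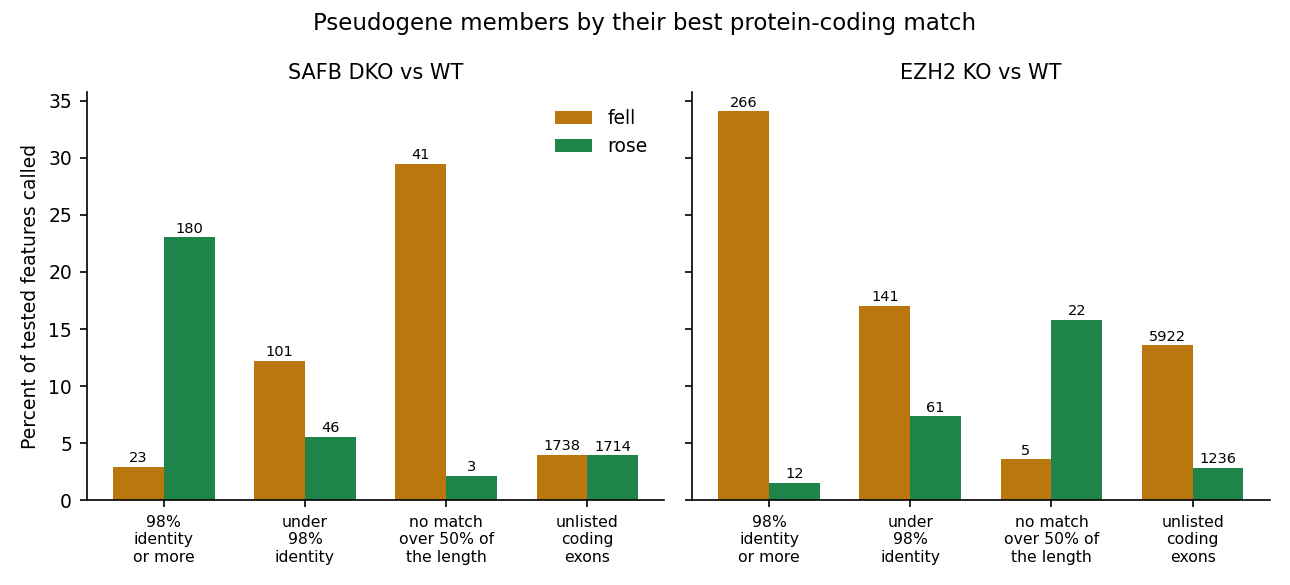
Percent of tested features that fell or rose in SAFB DKO against WT and in EZH2 KO against WT, with counts on the bars. Pseudogene features are split into a coding match of 98% identity or more, of lower identity, and no match. Unlisted coding exons stand beside them. Of the first group 180 of 781 rose in SAFB DKO against WT, and 41 of 139 fell in the group with no match.

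The 4 pseudogenes with the highest level summed over their features resembled genes of several functions. Eif4a-ps4 (chr1:60703987-60705613), 99.9% identical to Eif4a1, a helicase of translation initiation, had 529 and 423 CPM in SAFB DKO, 67.8 and 85.1 CPM in EZH2 KO, and 223, 226 and 262 CPM in WT. The groups were apart, with log2 fold changes of 1.01 (SE 0.15, adjusted p = 7.7e-05) in SAFB DKO and -1.63 (adjusted p = 1.9e-05) in EZH2 KO. Gm13340, a copy of the mitochondrial gene mt-Co1 at 97.1% identity, had 302 and 454 CPM in SAFB DKO, 28.1 and 63.7 CPM in EZH2 KO, and 183, 184 and 226 CPM in WT. Its call in SAFB DKO (0.94, adjusted p = 0.0098) was lost in 4 alternatives. Gm4204, which matches the histone chaperone gene Nap1l1 at 99.8%, passed the test in no comparison, with 299 and 347 CPM in SAFB DKO, 229 and 379 CPM in EZH2 KO, and 321, 375 and 358 CPM in WT. Gm12346, which matches the chaperone gene Hsp90aa1 at 99.6%, passed it in none either, with 241 and 283 CPM in SAFB DKO, 170.0 and 310.4 CPM in EZH2 KO, and 249, 273 and 281 CPM in WT. The window of Gm12346 at chr11:77294197-77294226 (plus strand) holds 3 copies of GAAGA, shown in capitals, and the window of Rpl14-ps1 at chr7:45325013-45325042 (plus strand) holds none.
Gm12346: ggctGAAGAaaagGAAGAgaaagagGAAGA
Rpl14-ps1: ttcgggccccatgctggaaagctggtcgca

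Pseudogenes named for ribosomal proteins had 47 tested features. Of these 25 rose and 2 fell in SAFB DKO against WT, with a median of 0.87, and in EZH2 KO against WT 28 fell and 2 rose, with a median of -1.28. Among all features tested, 2.26% were called higher and 17.4% lower in SAFB DKO, and 7.5% higher and 8.07% lower in EZH2 KO. Rpl14-ps1 (chr7:45325013-45325479), at 98.9% identity to Rpl14, had 403 and 340.2 CPM in SAFB DKO, 97.6 and 124 CPM in EZH2 KO, and 212, 220.2 and 203 CPM in WT. It was above WT in each SAFB DKO library (0.81, adjusted p = 0.00046) and below WT in each EZH2 KO library (-0.94, adjusted p = 0.0006). Rps6-ps4 had the same order, with 135 and 121 CPM in SAFB DKO, 47.8 and 48.3 CPM in EZH2 KO, and 72.3, 79.7 and 69.5 CPM in WT. Btnl7-ps, an unprocessed pseudogene of the butyrophilin family, was higher in both knockouts, with 2.14 and 2.04 CPM in SAFB DKO, 2.41 and 2.83 CPM in EZH2 KO, and 0.689, 0.188 and 0.209 CPM in WT (2.49, adjusted p = 0.0058; 2.81, adjusted p = 0.0069).

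The features that fell and rose also differed in length and level. In SAFB DKO against WT the median length was 947 bases in those that fell, 414 in those that rose and 360.5 in those not called, and the median level was 4.04, 14.5 and 1.09 CPM. Against WT, those that rose in EZH2 KO were the long ones, with a median of 1152 bases, against 367.5 in those that fell. The word GAAGA occurred 3.69 times per kilobase of the set on its own strand and 1.58 times on the opposite strand. Pseudogenes had 5.15 per kilobase, lincRNA 2.66, processed transcripts 2.66, other types 2.11 and antisense 2.03, beside 4.12 in unlisted coding exons and 4.08 in listed noncoding-exon peaks. On the opposite strand the classes had 1.26, 1.81, 1.99, 1.87 and 1.95 in the same order, beside 1.59 and 1.58. The excess on the own strand was thus largest in pseudogenes and small in antisense and other types. Counted in 200 bases of each feature long enough, 55.2% of pseudogene, 39.7% of lincRNA and 30.8% of antisense features held at least 1 copy, beside 45.5% of listed noncoding-exon peaks. On the opposite strand these shares were 24.0%, 26.2%, 24.7% and 24.4%. These are descriptions of sequence and not of binding.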

How the data were processed

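The series holds 7 libraries of EZH2 antibody precipitates in 3 genotypes (SAFB DKO, EZH2 KO and WT). The authors deposited raw counts of reads for each feature. These were made, per the file headers, in mm10 with featureCounts 2.0.3, set to reverse-stranded counting, and the features are named for the pooled WT libraries. No aligner, peak caller or meaning of the filter named in the headers is given in the sources used here. Per the file headers, neither multimapping reads nor reads of more than 1 feature were requested. The deposited peak list gave intervals and other columns, of which only the names were used. Another 3 value columns, named for a control antibody, matched no sample and were not used here. Both SAFB DKO labels carry 1 replicate number, so these clones were numbered in label order.

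GENCODE M21 (basic) gave the annotation of each feature on its strand. Counts of all features were tested with edgeR 4.0.16 (filterByExpr, quasi-likelihood F-test) in R 4.3.3. All 7 libraries entered 1 fit with group as the term, so that the EZH2 KO libraries also enter the spread of SAFB DKO against WT. TMM factors, taken from the 170869 tested features that are not in the filtered list, scaled the column totals. Benjamini-Hochberg adjusted p under 0.05 counts as rose or fell. CPM use the same sizes, and n is 2, 2 and 3. Shares were compared by exact two-sided permutation over libraries, whose smallest p is 0.1 for 3 against 2 and 0.333 for 2 against 2. For a feature without counts in a group, 3 counts over the group served as floor, which covers counting error only. Intervals of shares in single libraries (95%, exact Clopper-Pearson) were widest in EZH2 KO replicate 1, at 7.68% to 7.72%, narrower than the spread between clones. Pseudogene features were matched to coding transcripts with blastn 2.17.0 (50% of the length; split at 98% identity). Sequences came from GENCODE M21 transcripts.

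Named genes were, per class, the 4 most abundant, the 3 features with the largest called change in each direction and comparison (mean of at least 1 CPM, no overlap of the groups), and members of fixed lists. The features and lists were chosen with earlier results of these data known. The script was tested on counts simulated from WT rates with less spread than the data. That test does not cover the less alike EZH2 KO libraries or the shift in listed peaks. Alternatives were other scalings, DESeq2 1.42.0, filters, a fold of 1.5, stricter membership, each library left out and, added after seeing the data, the comprehensive annotation.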

Additional observations from a re-analysis of the deposited data

How the results depend on the processing

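In SAFB DKO against WT the count that rose, 250, was 427 with column totals, 435 with DESeq2 size factors, 403 with DESeq2, 469 with only the groups compared and 51 against a fold of 1.5, and the count that fell, 493, was 281 at a mean of at least 50 counts, 278 with 90% of bases in a noncoding exon and 780 with the comprehensive annotation. In EZH2 KO against WT the count that fell, 484, was 317 at a mean of at least 50 counts, 278 against a fold of 1.5 and 832 with the comprehensive annotation, and the count that rose, 323, was 183 against a fold of 1.5, 181 with 90% of bases and 546 with the comprehensive annotation. In SAFB DKO against EZH2 KO, 349 fell and 438 rose at a mean of at least 50 counts, 464 fell with 90% of bases, and 1284 fell and 1617 rose with the comprehensive annotation. The stricter filters and membership test fewer features and the comprehensive annotation more; otherwise the cause was not tested.

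Leaving out 1 library gave 332 to 692 lower and 98 to 448 higher in SAFB DKO against WT, 260 to 777 and 181 to 367 in EZH2 KO against WT, and 657 to 817 and 703 to 1067 in SAFB DKO against EZH2 KO. The difference in share was 5.20 to 5.55 percentage points in SAFB DKO against WT, -0.70 to 0.035 in EZH2 KO against WT and 5.34 to 6.08 in SAFB DKO against EZH2 KO. Outside the filtered list the share differences were 4.13, 0.881 and 3.25, and without the ribosomal RNA-like genes 0.826 and 1.27 for the comparisons with SAFB DKO. With a replicate block 287 fell and 231 rose in EZH2 KO against WT. Deviations of same-numbered libraries from their group means had correlations of 0.027 and 0.0006. The EZH2 KO libraries mirror each other around their mean, so these values cannot decide whether the numbers pair the samples. The labels do not say. For SAFB DKO, No paired analysis was possible because both labels carry the same number. Jpx, lower in SAFB DKO than in EZH2 KO, ranged from -7.53 to 3.89 on the log2 scale with 1 library left out and reversed without EZH2 KO replicate 1. For single features 4277 of the alternative values kept their direction and call, 245 lost it, 93 gained one and 1 reversed.

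The median of all features moved by 0.25, 0.01 and 0.24 with DESeq2 size factors and by 0.22, -0.25 and 0.47 with column totals in the 3 comparisons. The shallow EZH2 KO libraries limit what can be called lower there.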
